A study of Mus musculus with 6 samples.

Results

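The solute carriers are membrane proteins that move amino acids, sugars, ions, metals, vitamins and other small molecules, and their genes are numbered by family with the prefix Slc. Here 129 of the 10995 genes in a table of mouse mammary tumor cells were taken by name: every symbol of the form Slc, family number, a and member number. The mitochondrial family Slc25a and the carriers Slc7a11, Slc3a2, Slc2a1, Slc2a3 and Slc16a3 were left out. The name also catches 5 genes that are not carriers, so 124 of the 129 are carriers proper. The genes were sorted into 17 classes by what they transport, and they took 0.889% of all counts.

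RNA came from tumor cells of MMTV-PyVT mice, in which the mouse mammary tumor virus promoter drives the polyoma middle T oncogene in mammary epithelium. All mice were FVB/NJ and carried the transgene. They were labelled Nr4a1-/- (3 libraries, called labelled KO) or wild type for Nr4a1 (3 libraries, called labelled WT). Nr4a1 encodes an orphan nuclear receptor. The sources used here do not give the age of the mice, the disrupted part of the allele, or whether each library came from its own animal. The p-values therefore reflect the library-to-library spread, part or all of which could be technical. Raw read counts per gene were deposited, 19569173 to 24188875 per library, and the levels below are CPM, the counts scaled to library size after TMM normalization.

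Carriers set what a cell can take up and release. In epithelium they sit on opposite faces of the cell, and in the mammary gland they supply amino acids, glucose, iodide, zinc and other milk components. Many use the sodium or proton gradient, many exchange one solute for another, and others sit in lysosomes, the Golgi or vesicles. Tumor cells are known for high uptake of amino acids and for export of acid.

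The labels could not be checked by the Nr4a1 transcript. Nr4a1 had 612, 847 and 746 counts in the libraries labelled KO and 711, 406 and 358 in those labelled WT, or 32.8 ± 6.70 and 23.3 ± 9.69 CPM (SD, n = 3 each), so it was not lower with the KO label (log2 fold change 0.49, SE 0.32, edgeR adjusted p = 0.594). Every direction below is therefore between libraries as labelled. WT replicate 1 stood apart from the others on the first principal component of all genes, at 51.3 against -28.8 to 2.22. Some of the results below, not all, are also given without it. All 8 luminal epithelial markers were in the table, and their summed level was 3258 to 4271 CPM in the libraries labelled KO and 4733 to 5346 CPM in those labelled WT. Macrophage markers summed to 1103 to 1275 CPM with the KO label and 794 to 920 CPM with the WT label, with 7 of 8 above 0 in log2 fold change. Pericyte and smooth muscle markers summed to 917 to 2021 and to 336 to 1123 CPM with 7 of 8 above 0, and fibroblast markers to 5143 to 9399 and to 2400 to 5774 CPM with 7 of 7 listed above 0. Basal epithelial markers, 4 of 4 listed with 1 above 0, summed to 958 to 1493 CPM with the KO label and 925 to 2016 CPM with the WT label. Of the adipocyte markers 2 of 6 were listed, and they summed to 53.4 to 134 CPM with the KO label and 11.6 to 21.5 CPM with the WT label, with a median log2 fold change of 2.68, the largest of the marker lists. One of them, Fabp4, a fatty acid binding protein, had a log2 fold change of 4.005 and an adjusted p of 2.86e-16 in DESeq2 and 0.287 in edgeR. Of the endothelial, T cell and erythroid markers 0 were listed. In bulk RNA, fewer cells of a type and less RNA per cell cannot be told apart, and the part of these cell types in the carrier results below was not tested.

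Among the carriers, levels spanned a wide range. To compare genes, mean CPM was divided by the length of all annotated exons of a gene, whether or not they are expressed here. These levels per kb, which thus depend on the annotation, ran between 0.620 and 116 with a median of 7.42. The taurine transporter Slc6a6 was highest at 116 CPM per kb, and the thiazide-sensitive sodium chloride cotransporter Slc12a3, known from kidney, was lowest at 0.620. Other high levels per kb were those of the zinc importer Slc39a1 (62.4), the amino acid transporter Slc38a2 (56.1), Slc38a10 (54.1), the creatine transporter Slc6a8 (35.8) and the heme transporter Slc48a1 (34.7). Slc6a6 stood at 995, 935 and 1004 CPM in the libraries labelled KO and at 1142, 933 and 897 CPM in those labelled WT. The groups overlapped, and the difference was within the spread (log2 fold change -0.018, SE 0.12; 0.097 without WT replicate 1).

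None of the 129 genes passed the test at an adjusted p under 0.05 in edgeR, which called 0 of all 10995 genes (0% called; smallest adjusted p = 0.273, and 0.574 among the 129). By unadjusted p under 0.05 in edgeR, 15 of the 129 were below the threshold, 10 higher and 5 lower with the KO label, or 11.6%, against 866 genes and 7.88% of the whole table (3.7% higher, 4.17% lower). That count was 6 without KO replicate 1 (4.67% of the table), 5 without KO replicate 2 (3.53%) and 26 without WT replicate 2 (12.4%). DESeq2 called 1 of them, Slc6a17, against 103 genes and 0.938% of the genes it tested (0.583% higher), and limma-voom called 0 genes. The groups did not overlap for 23 of the 129, 14 higher and 9 lower, or 17.8%, against 17.4% of the whole table (8.39% higher, 9.05% lower). The median log2 fold change was 0.0030 with 65 above and 64 below 0, against -0.0024 over all genes. The share without overlap thus lay near the background. The spread between libraries was wider: the highest library was a median of 1.58 times the lowest among these genes, against 1.35 times over all genes. An absolute log2 fold change over 0.5 was reached by 28 of the 129 (21.7%), against 10.6% of the table. Without WT replicate 1 that was 9 of 129 (6.98%), against 5.34% of the table. Without that library, 34 of the 129 had groups that did not overlap (26.4%), against 24.3% of the table.

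**Figure D1:**
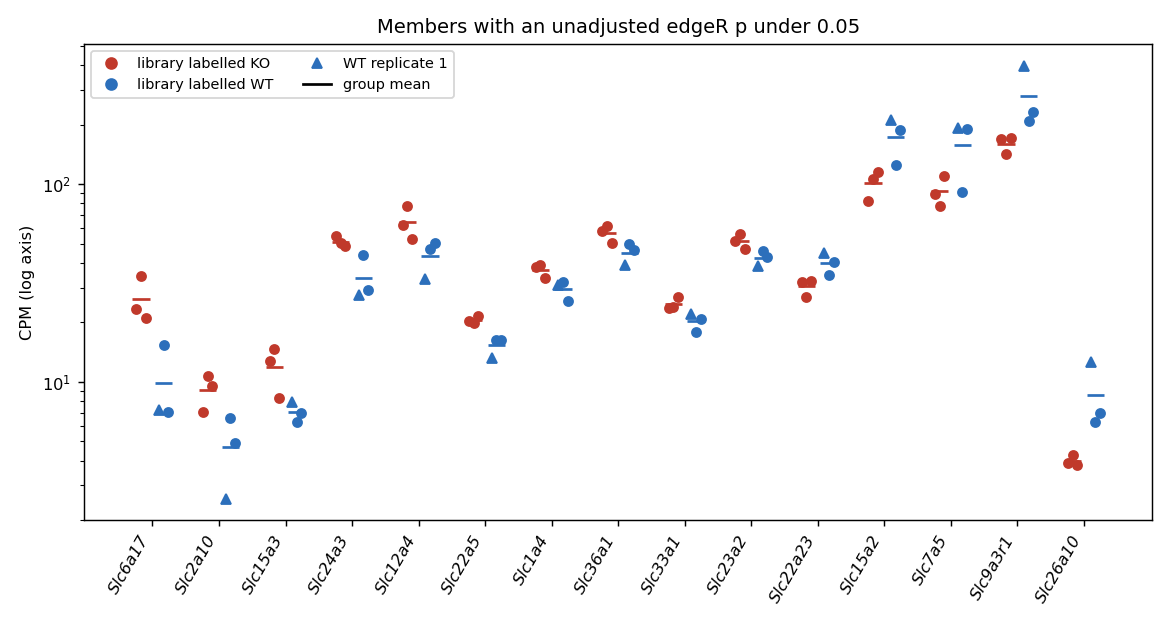
CPM on a log axis in each library for the 15 genes with an unadjusted edgeR p under 0.05, ordered by log2 fold change from highest to lowest. Points are libraries, triangles are WT replicate 1 and bars are group means. The groups do not overlap for 14 of the 15 genes, Slc7a5 being the exception, but that p had selected these genes. Without that selection, the groups do not overlap for 17.8% of the 129 genes and 17.4% of the whole table.

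Amino acid and peptide carriers held 6 of those 15 genes among 27 members, 4 higher and 2 lower, against 7.88% of the whole table. In edgeR 0 of the 27 passed adjustment, and the class median was -0.056 (0.0061 without WT replicate 1). Slc6a17, a vesicular carrier of neutral amino acids known from synapses, was the 1 gene called by DESeq2. This gene (ENSMUSG00000027894.14, chromosome 3, 107467543 to 107518018, minus strand, GRCm38) stood at 23.3, 34.3 and 20.9 CPM in the libraries labelled KO and at 7.22, 15.4 and 7.01 CPM in those labelled WT. Every library labelled KO was above every one labelled WT. Its log2 fold change was 1.41 (SE 0.37), with an adjusted p of 0.0366 in DESeq2 and 0.574 in edgeR, and between 1.16 and 1.88 with single libraries left out. Slc15a3, a lysosomal peptide and histidine transporter known from macrophages and other immune cells, stood at 12.7, 14.7 and 8.28 CPM with the KO label and at 7.95, 6.28 and 6.97 CPM with the WT label. The groups were separated by a narrow margin, between KO replicate 3 and WT replicate 1. The log2 fold change was 0.75 (SE 0.24, unadjusted p = 0.0194), and 31.8% of its 31-base words also occur in other genes, mainly Tmem132a, which overlaps 28.1% of its exon bases, so its reads are uncertain. Slc36a1, which moves small neutral amino acids out of lysosomes with protons, averaged 56.5 ± 5.63 CPM in the libraries labelled KO and 45.1 ± 5.43 CPM in those labelled WT (SD, n = 3 each). Its log2 fold change was 0.32 (SE 0.12). Slc1a4, a sodium-dependent exchanger of alanine, serine and cysteine, stood at 38.3, 39.2 and 33.6 CPM with the KO label and at 30.97, 31.97 and 25.6 CPM with the WT label, a log2 fold change of 0.33 (SE 0.12). For both genes the groups were apart, and neither passed adjustment.

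The 2 genes of this class that were lower with the KO label at an unadjusted p under 0.05 were Slc15a2 and Slc7a5. Slc15a2 (ENSMUSG00000022899.9, chromosome 16, 36750177 to 36784962, minus strand, GRCm38) encodes the high-affinity proton-coupled peptide transporter. It stood at 82.8, 106 and 116 CPM in the libraries labelled KO, and at 211, 125 and 188 CPM in those labelled WT. All libraries labelled KO lay below all labelled WT, and the log2 fold change was -0.78 (SE 0.22, unadjusted p = 0.0131), or -0.63 without WT replicate 1. Slc7a5, the exchanger of leucine and other large neutral amino acids, stood at 88.9, 77.4 and 110 CPM with the KO label and at 194, 91.4 and 191 CPM with the WT label. WT replicate 2 lay within the range of the libraries labelled KO. The log2 fold change of -0.79 (SE 0.31, unadjusted p = 0.0455) had an unadjusted p of 0.123 without WT replicate 1. The heavy chain that carries Slc7a5 to the membrane, Slc3a2, averaged 175 ± 1.82 CPM with the KO label and 185 ± 14.7 CPM with the WT label (SD, n = 3 each), a log2 fold change of -0.080 (SE 0.078). Slc38a2, the sodium-coupled importer of small neutral amino acids and the member of the class with the highest level per kb, averaged 469 ± 11.7 and 522 ± 81.7 CPM (SD, n = 3 each; labelled KO, labelled WT), which did not differ beyond the spread (log2 fold change -0.15, SE 0.13).

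**Figure D2:**
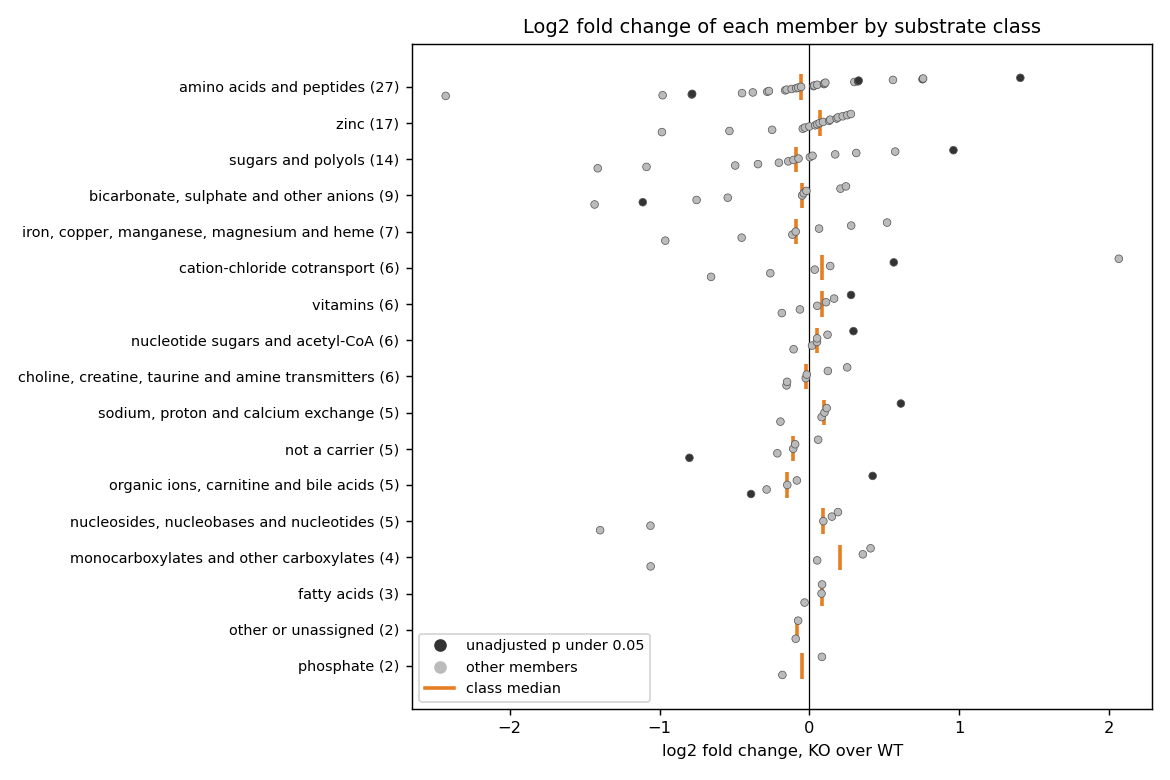
Log2 fold change of each of the 129 genes (x axis, KO over WT) by substrate class (y axis, number of genes in brackets). Dark points have an unadjusted edgeR p under 0.05 and orange bars are class medians, which lie between -0.15 and 0.20.

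The cation-chloride cotransporters had 4 of 6 genes above 0 and a class median of 0.087. Of the 6, 1 gene had an unadjusted p under 0.05, against 7.88% of the whole table. That gene, Slc12a4, is a potassium chloride cotransporter of cell volume control. It stood at 62.3, 78.0 and 52.7 CPM with the KO label and at 33.1, 47.1 and 50.5 CPM with the WT label, a log2 fold change of 0.56 (SE 0.21, unadjusted p = 0.0372). The sodium chloride cotransporter Slc12a3 was held on few counts, 309, 327 and 139 in the libraries labelled KO against 5, 116 and 51 in those labelled WT. The groups did not overlap, and the log2 fold change of 2.06 (SE 0.86) had an unadjusted p of 0.0529. It was 1.53 without WT replicate 1 and 3.07 without WT replicate 2. Slc12a2, which brings sodium, potassium and chloride into the cell and had the highest level per kb in the class, was lower in every library labelled KO. It averaged 184 ± 7.56 CPM with the KO label and 221 ± 37.5 CPM with the WT label (SD, n = 3 each), a log2 fold change of -0.26 (SE 0.13), or -0.11 without WT replicate 1.

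The carriers of bicarbonate, sulphate and other anions had 2 of 9 genes above 0 and a class median of -0.049. Slc26a10 (ENSMUSG00000040441.10, chromosome 10, 127171393 to 127180645, minus strand, GRCm38), of the anion exchanger family Slc26, had 95, 102 and 75 counts in the libraries labelled KO and 261, 137 and 148 in those labelled WT. In CPM it stood at 3.90, 4.28 and 3.78 with the KO label and at 12.6, 6.28 and 6.97 with the WT label, so the groups were apart. Its log2 fold change was -1.11 (SE 0.30, unadjusted p = 0.00968), or -0.73 without WT replicate 1, and 19.2% of its words occur in other genes, mainly the overlapping B4galnt1. The most abundant member per kb, the chloride bicarbonate exchanger Slc4a2, averaged 173 ± 5.32 CPM with the KO label and 179 ± 8.03 CPM with the WT label (SD, n = 3 each). The sodium iodide symporter Slc5a5, which loads iodide into milk, stood at 57.5, 60.1 and 30.6 CPM with the KO label and at 69.2, 30.2 and 51.1 CPM with the WT label, with a log2 fold change of -0.020 (SE 0.38). Its groups overlapped throughout.

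Calcium, proton and sodium exchangers had 4 of 5 genes above 0, and their median was 0.10 (0.020 without WT replicate 1). Slc24a3, which exports calcium and potassium for sodium, stood at 54.8, 50.4 and 48.6 CPM with the KO label and at 27.7, 43.8 and 29.2 CPM with the WT label. The groups were apart, and the log2 fold change was 0.61 (SE 0.19, unadjusted p = 0.0181). The genes named after the Slc9 family for their binding to it are scaffolds and not carriers. Slc9a3r1 encodes the PDZ scaffold NHERF1, which holds transporters and ezrin at the apical membrane of epithelium. It stood at 169, 142 and 172 CPM in the libraries labelled KO, and at 399, 210 and 232 CPM in those labelled WT. Every library labelled KO was below every one labelled WT. The log2 fold change was -0.80 (SE 0.26, unadjusted p = 0.0218), and without WT replicate 1 it was -0.46. The other scaffold, Slc9a3r2, lay between 43.96 and 57.1 CPM with the KO label and between 43.2 and 55.3 CPM with the WT label, and the other genes here that are not carriers, Slc4a1ap, Slc7a6os and the pseudogene Slc2a4rg-ps, had log2 fold changes between -0.21 and -0.095.

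Sugar carriers spread in both directions, with 6 of 14 above 0, log2 fold changes between -1.41 and 0.96, and a median of -0.090 (0.028 without WT replicate 1). Of the 14, 4 were past an absolute log2 fold change of 0.5 (28.6%, against 10.6% of the table). They were Slc2a10, Slc2a9, Slc5a1 and Slc5a9, and without WT replicate 1 Slc2a10 alone stayed past it. In Slc2a9, Slc5a1 and Slc5a9 that library stood more than 2-fold above or below all others. Slc2a10, a facilitative transporter of the GLUT family, had 172, 257 and 190 counts in the libraries labelled KO and 53, 144 and 104 in those labelled WT. Its groups were apart, with a log2 fold change of 0.96 (SE 0.37, unadjusted p = 0.0389), or 0.67 without WT replicate 1. The insulin-responsive glucose transporter Slc2a4 stood at 4.64, 5.32 and 8.53 CPM and at 3.93, 8.03 and 6.45 CPM (labelled KO, labelled WT), with no difference beyond the spread. Slc2a6 was high in 1 library of each label, at 44.9 CPM in KO replicate 3 and 51.9 CPM in WT replicate 3, and between 13.2 and 22.6 CPM in the others. Slc37a3, of the sugar phosphate family and the class member with the highest level per kb, averaged 81.5 ± 3.85 CPM and 85.8 ± 13.4 CPM (SD, n = 3 each; labelled KO, labelled WT). All 5 listed members of the sodium-coupled family Slc5 lay below 0, with a median of -1.06, and without WT replicate 1 the median was -0.019 with 2 of 5 above 0. Of the glucose transporters outside the rule, Slc2a1 had a log2 fold change of 0.29 (SE 0.18).

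Monocarboxylate carriers move lactate, pyruvate and ketone bodies. Of the 4 genes, 3 lay above 0, and the 5 members of family Slc16, of which some carry other substrates, all did, with a family median of 0.30 (0.17 without WT replicate 1). Slc16a4, a less studied member of that family, stood at 12.5, 10.1 and 11.9 CPM with the KO label and at 6.83, 9.45 and 9.74 CPM with the WT label, a separation of the groups with a log2 fold change of 0.41 (SE 0.18, unadjusted p = 0.0673). The lactate and pyruvate transporter Slc16a1 stood at 80.4, 80.7 and 87.5 CPM with the KO label and at 37.2, 51.0 and 106 CPM with the WT label. WT replicate 3 was the highest library, so the groups overlapped (log2 fold change 0.36, SE 0.38). The lactate exporter Slc16a3, outside the rule, had a log2 fold change of 0.67 (SE 0.21, unadjusted p = 0.0171). Slc5a8, a sodium-coupled importer of short-chain monocarboxylates, ran between 50.2 and 219 CPM with the KO label and between 114 and 499 CPM with the WT label. Its log2 fold change of -1.06 (SE 0.78) was -0.034 without WT replicate 1. The fatty acid transporters Slc27a4, Slc27a1 and Slc27a3 had log2 fold changes of 0.084, 0.081 and -0.032, none beyond its SE.

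An unadjusted p under 0.05 was reached by 2 of 5 organic ion carriers, 1 of 6 vitamin carriers and 1 of 6 nucleotide sugar and acetyl-CoA carriers. Of these genes 3 were higher and 1 lower, and the share over the whole table was 7.88%. Slc22a5, the sodium-dependent carnitine importer, stood at 20.3, 19.8 and 21.5 CPM in the libraries labelled KO and at 13.3, 16.3 and 16.4 CPM in those labelled WT. The groups were apart and their spread was narrow, with a log2 fold change of 0.42 (SE 0.12, unadjusted p = 0.0118). Of its words 38.7% are shared, mainly with the neighbouring paralog Slc22a21, so its reads are uncertain. The organic ion family member Slc22a23, whose substrate is not established, stood at 31.9, 27.04 and 32.6 CPM with the KO label and at 44.8, 34.6 and 40.5 CPM with the WT label, without overlap and with a log2 fold change of -0.39 (SE 0.13, unadjusted p = 0.0222). Slc23a2, the sodium-coupled importer of vitamin C, averaged 51.6 ± 4.30 CPM with the KO label and 42.6 ± 3.57 CPM with the WT label (SD, n = 3 each), a log2 fold change of 0.28 (SE 0.0997, unadjusted p = 0.0310). The thiamine importer Slc19a2, with the highest level per kb among vitamin carriers, ran between 21.5 and 31.03 CPM with the KO label and between 17.9 and 32.8 CPM with the WT label. Slc33a1, which brings acetyl-CoA into the endoplasmic reticulum, stood at 24.8 ± 1.78 and 20.2 ± 2.05 CPM (SD, n = 3 each; labelled KO, labelled WT). Its log2 fold change was 0.29 (SE 0.11, unadjusted p = 0.0413), and 35.5% of its words are shared, mainly with the overlapping gene model Gm26850. The nucleotide sugar transporters Slc35a1 to Slc35a5, which supply the Golgi, lay between -0.11 and 0.12 in log2 fold change, with Slc35a4 highest per kb of its class and at 24.1% shared words. The lysosomal sialic acid exporter Slc17a5, with the highest level per kb of its class, had -0.29 (SE 0.17). Slc10a7 and Slc10a3, whose substrates were left unassigned, had -0.075 (SE 0.090) and -0.092 (SE 0.15).

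Zinc carriers were the second largest class, with 11 of 17 above 0 and a median of 0.068. Of the 17, 0 had an unadjusted p under 0.05, against 7.88% of the whole table. Zinc carriers fall into exporters from the cytosol (Slc30) and importers into it (Slc39). The 6 exporters lay between -0.030 and 0.22 in log2 fold change. Of the 11 importers, Slc39a11 stood at 47.7, 43.4 and 42.3 CPM with the KO label and at 88.6, 51.3 and 53.3 CPM with the WT label. The groups did not overlap, and the log2 fold change was -0.53 (SE 0.23, unadjusted p = 0.0567), or -0.23 without WT replicate 1. Slc39a3, an importer at the plasma membrane, stood at 32.2, 28.9 and 28.3 CPM with the KO label and at 39.9, 31.8 and 34.6 CPM with the WT label, with KO replicate 1 above WT replicate 2 (log2 fold change -0.25, SE 0.11). Slc39a1, the importer with the highest level per kb, averaged 154 ± 4.96 CPM and 140 ± 14.9 CPM (SD, n = 3 each; labelled KO, labelled WT), but 27.7% of its words occur in its pseudogene. Slc39a14, an importer of zinc, iron and manganese induced in inflammation, stood at 245, 212 and 323 CPM with the KO label and at 182, 239 and 224 CPM with the WT label, which overlapped.

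Carriers of iron, copper, magnesium and heme had 3 of 7 above 0, and 4 of 7 without WT replicate 1. Slc11a2, the proton-coupled importer of ferrous iron, stood at 78.4, 72.4 and 85.9 CPM with the KO label and at 135, 81.0 and 107 CPM with the WT label. WT replicate 2 lay inside the range of the other label, and the log2 fold change was -0.45 (SE 0.19, unadjusted p = 0.0563), or -0.26 without WT replicate 1. The iron exporter Slc40a1 ran between 14.3 and 15.4 CPM with the KO label and between 12.5 and 18.8 CPM with the WT label. The heme transporter Slc48a1, highest per kb in the class, ran between 92.3 and 112 CPM with the KO label and between 59.3 and 111 CPM with the WT label. The copper gene Slc31a2 ran between 38.9 and 51.1 CPM with the KO label and stood at 140, 47.7 and 65.2 CPM with the WT label, which overlapped (log2 fold change -0.96, SE 0.41; -0.38 without WT replicate 1). The copper importer Slc31a1 lay between 96.5 and 101 CPM with the KO label and between 94.6 and 115 CPM with the WT label.

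Nucleoside, choline, creatine, taurine and phosphate carriers held 0 genes at an unadjusted p under 0.05, against 7.88% of the whole table. The nucleoside class median was 0.093 with all libraries and -0.39 without WT replicate 1. Slc28a3, the concentrative nucleoside importer, ran between 13.02 and 40.7 CPM with the KO label and stood at 63.8, 38.5 and 47.1 CPM with the WT label. KO replicate 3 was above WT replicate 2, and the log2 fold change of -1.06 (SE 0.45, unadjusted p = 0.0575) was -1.68 without KO replicate 3. The equilibrative transporter Slc29a1 averaged 131 ± 22.3 CPM and 118 ± 25.1 CPM (SD, n = 3 each; labelled KO, labelled WT). The creatine transporter Slc6a8, the choline transporter-like gene Slc44a2 and the phosphate importers Slc20a1 and Slc20a2 had log2 fold changes between -0.18 and 0.12, each with overlapping groups. The noradrenaline transporter Slc6a2 stood at 26.4, 13.2 and 63.5 CPM with the KO label and at 27.4, 34.6 and 24.5 CPM with the WT label, so both its highest and its lowest library carried the KO label.

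WT replicate 1 stood apart in many carriers. In 15 of the 129 genes this library stood more than 2-fold above (11 genes) or below (4 genes) all other libraries, or 11.6%, against 3.98% of the table. No other library did so for any of these genes. Slc6a14, which imports neutral and cationic amino acids with sodium and chloride, had 51.2 CPM in WT replicate 1 and 2.14 to 6.46 CPM in the other 5 libraries. The sodium bicarbonate cotransporter Slc4a4 had 140 CPM there, against 20.8 to 24.8 CPM elsewhere. The zinc and manganese importer Slc39a8 had 163 CPM against 25.3 to 38.9 CPM. The arginine and lysine importer Slc7a1 had 244 CPM against 59.8 to 87.4 CPM, and the monoamine and nucleoside transporter Slc29a4 had 85.2 CPM against 15.4 to 26.8 CPM. The sodium-coupled sugar carriers Slc5a1 and Slc5a9 were at 43.5 and 23.4 CPM there, against at most 21.2 and 8.02 CPM elsewhere. In the opposite direction, the purine nucleobase transporter Slc43a3 had 9.89 CPM in WT replicate 1 and 43.4 to 77.1 CPM in the others, and the inducible arginine transporter Slc7a2 had 22.8 against 50.2 to 93.9 CPM. Atp1b1, a beta subunit of the sodium pump, which keeps the gradient many of these carriers use, was at 139 CPM in WT replicate 1 against 6.16 to 22.6 CPM in the others.

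**Figure D3:**
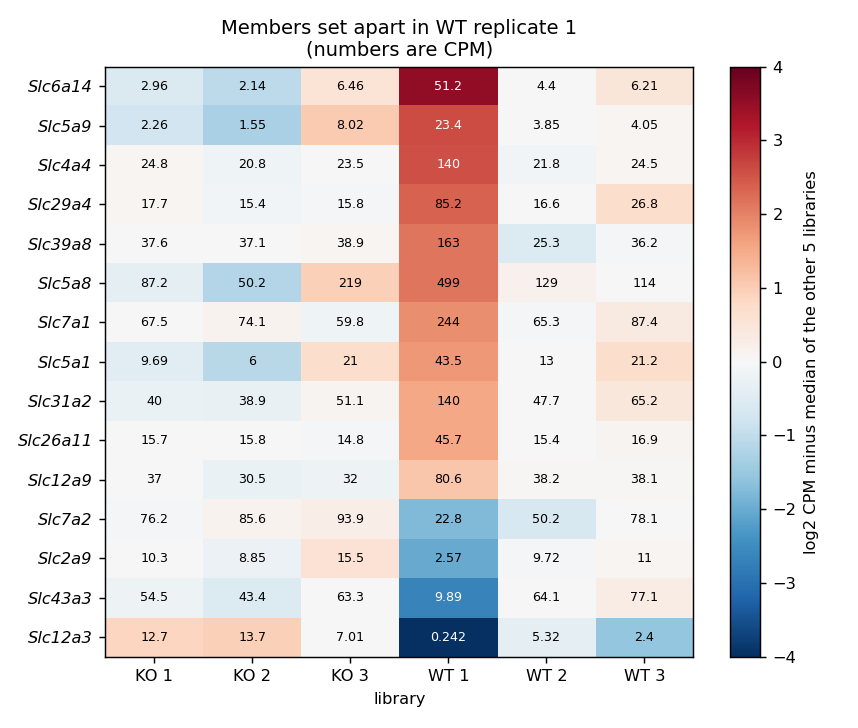
Heat map of the 15 genes in which WT replicate 1 stood more than 2-fold above or below all other libraries. Rows are genes, columns are libraries, numbers are CPM and colour is log2 CPM minus the median of the other 5 libraries; 11 genes are high and 4 are low in WT replicate 1.

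Without that library, the log2 fold changes of those 15 genes ran between -0.49 and 1.53. Those of Slc4a4, Slc5a9 and Slc5a8 were -0.011, -0.0195 and -0.034 without it, against -1.43, -1.41 and -1.06 with all libraries. Slc6a14 had -2.43 with all libraries and -0.47 without it, Slc29a4 -1.40 and -0.41, Slc5a1 -1.09 and -0.49, and Slc7a2 0.76 and 0.41. In this set Slc39a8 and Slc43a3 changed sign, where Slc39a8 had -0.98 with all libraries and 0.30 without it, and Slc43a3 0.093 and -0.39. Of the 129 genes, 25 changed sign when it was left out. Of the 28 genes past an absolute log2 fold change of 0.5, 18 were below 0 and 10 above with all libraries. The 9 that stayed past it were Slc6a17, Slc15a3, Slc12a3 and Slc2a10, higher with the KO label, and Slc15a2, Slc7a5, Slc26a10, Slc4a11 and Slc28a3, lower. Slc4a11, of the bicarbonate transporter family, had -0.28 without KO replicate 3 or without WT replicate 3. Of the 129 genes, 84 kept their sign in all 6 fits that left out a single library, among them the 15 at an unadjusted p under 0.05, which that p had selected. Without WT replicate 1, 12 of the 129 were under 0.05 (9.30%), 10 of them from the 15, against 6.85% of the table. WT replicate 1 also had the lowest summed markers of macrophages (794 CPM), fibroblasts (2400 CPM), pericytes and smooth muscle (336 CPM), basal epithelium (925 CPM) and adipocytes (11.6 CPM) of all libraries. Not every gene of these lists was lowest in that library. Krt14 (661 CPM), Krt5 (78.3 CPM), Cd14 (404 CPM) and Notch3 (85.9 CPM) were among those that were not. The part of these cell types in its carrier levels was not tested.

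**Figure D4:**
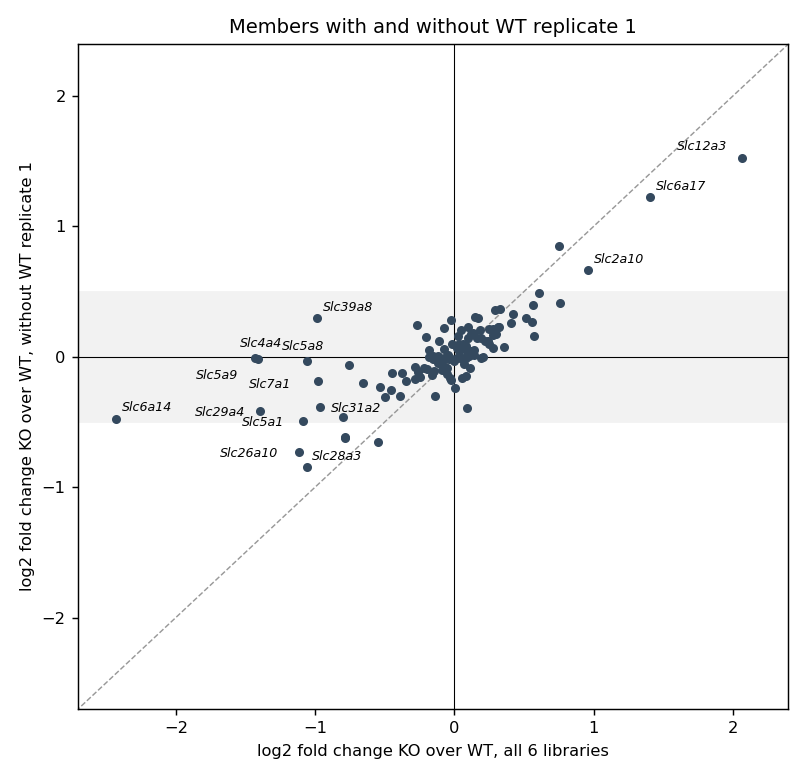
Log2 fold change of each of the 129 genes, KO over WT, with all 6 libraries (x axis) and without WT replicate 1 (y axis). The dashed line marks equal values and the grey band an absolute value up to 0.5 without that library; 28 genes lie past 0.5 on the x axis and 9 outside the band.

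Other transport genes gave no calls in edgeR either. The counts below at an unadjusted p under 0.05 stand against 7.88% of the whole table. Of the 21 listed carriers with other family letters or the prefix Slco, 7 lay above 0, and 1 had an unadjusted p under 0.05, the nucleotide sugar transporter Slc35b4 (log2 fold change 0.29, SE 0.11). Of 23 ABC transporters, 12 lay above 0 and 2 had an unadjusted p under 0.05. These were Abcc9, a channel regulator that is also on the list of pericyte markers (1.79, SE 0.44; DESeq2 adjusted p = 0.0210), and Abca7 (-0.20, SE 0.077). Of 7 listed sodium pump genes, 5 lay above 0, and Fxyd5, a regulator of the pump, had 0.67 (SE 0.25, unadjusted p = 0.0398). Of 14 listed partners and regulators of carriers, 7 lay above 0, and Wnk2, a kinase of the WNK family, had -0.71 (SE 0.25, unadjusted p = 0.0283). The cystine importer Slc7a11, left out by the rule, had 0.999 (SE 0.23, unadjusted p = 0.00504), and DESeq2 called it (adjusted p = 0.0264).

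Promoter sequence was read for the genes with an entry in RefSeq's GRCm38.p6 table, 94 of the 129 with 130 start sites, from 250 bases before to 50 after each start. The monomer site of the NR4A receptors, AAAGGTCA on either strand (TGACCTTT), was in 0 of these 130 windows, against 0.875% of the windows of all genes in the count table. At so low a share, 130 windows are too few to tell 0 from the background. The core of the amino acid response element, TGATGNAA on either strand (TTNCATCA), to which ATF4 and its partners are known to bind in amino acid carrier genes, was in 5 of 130 windows (3.85%), against 2.15%. Of the 5, 2 are overlapping windows of Slc7a7 that hold the same site, and by gene the core was found for 4 of 94 (4.26%), against 2.62% of the genes of the count table. Those windows belong to 4 genes and are shown because 2 of them, Slc1a4 and Slc7a7, carry amino acids. Capitals mark the match, read 5′ to 3′ on the strand of the gene. The site in Slc1a4 matches on the opposite strand, and Slc7a7 also holds a match further upstream.

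Slc1a4 (chromosome 11, window chr11:20332664-20332963, minus strand): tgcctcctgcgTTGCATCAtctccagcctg

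Slc7a7 (chromosome 14, window chr14:54417895-54418194, minus strand): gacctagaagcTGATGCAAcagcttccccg

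Slc26a10 (chromosome 10, window chr10:127180533-127180832, minus strand): gggctcagagcTGATGGAAcagagggtatt

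Slc50a1 (chromosome 3, window chr3:89270521-89270820, minus strand): agtggtctcgaTGATGCAAggggtgcgcag

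A match is a description of these letters and not a bound site. Of these 4 genes, Slc1a4 and Slc26a10 had an unadjusted p under 0.05, in opposite directions (log2 fold changes 0.33 and -1.11). Slc7a7, the light chain for cationic amino acid export, had -0.056 (SE 0.14), and the sugar transporter Slc50a1 had 0.31 (SE 0.16).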

How the data were processed

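Gene expression was measured by RNA-seq in 3 libraries labelled KO and 3 labelled WT. The authors deposited raw counts per gene symbol. Per the submitters' processing notes, CASAVA 1.8, HISAT2, featureCounts and the build GRCm38 (mm10) were used. Strand and multi-read rules: not given in the sources used here. Genes absent from the table were not analysed here. The lowest maximum count of a row was 133.

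Counts were fitted with edgeR 4.0.16 in R 4.3.3 (filterByExpr, which removed 0 genes, TMM, robust quasi-likelihood F test, group as sole term), and p-values were adjusted by Benjamini-Hochberg over the whole table. DESeq2 1.42.0, limma-voom (limma 3.58.1), other scalings, filters, a block and each library left out were alternatives. Tests were checked on simulated counts, in which no library was set apart over many genes as WT replicate 1 is here. All 129 symbols matched 1 gene of GENCODE M21, which gave coordinates, exon lengths and shared 31-base words in the longest transcript (Python 3.11.15); 16 genes shared over 10%.

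Named genes were those called by any tool, the 12 smallest p per direction, and per class the smallest p and the highest level per kb. Some genes that this rule names are not reported here. Genes set apart in WT replicate 1, and a few known carriers, were added after their values were seen. The members and lists were chosen with earlier results of these data known. Intervals and p-values rest on 3 libraries a group.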

Additional observations from a re-analysis of the deposited data

How the results depend on the processing

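edgeR called 0 genes, and so 0 of the 129, under the other scalings, filters, threshold (adjusted p under 0.1) and the replicate block, and limma-voom called 0. DESeq2 called 103 genes, 1 of them among the 129. With single libraries left out, edgeR called 0 to 2 genes, the 2 being without WT replicate 2, and 0 of the 129. Of the 129, 15 had an unadjusted p under 0.05 in edgeR (14 of the 124 carriers proper). In DESeq2 24 did (18.75%, against 10.7% of the table), and DESeq2 gave no p for Slc6a14. With single libraries left out, the edgeR count ran between 5 and 26. It was 6 without KO replicate 1, 5 without KO replicate 2 and 26 without WT replicate 2 (20.2%, against 12.4% of the table). Groups did not overlap for 23 of the 129, and for 31 to 43 with a library left out. They numbered 35 without KO replicate 1 (27.1%, against 26.3% of the table), 41 without KO replicate 3 (31.8%, against 34.7%) and 43 without WT replicate 2 (33.3%, against 33.1%). The sources used here do not say whether the replicate numbers pair the libraries. Deviations of same-numbered libraries correlated at -0.11, 0.35 and -0.25, and those of differently numbered ones between -0.33 and 0.35. With 3 libraries a group these values cannot decide it. With the replicate block, 18 of the 129 had an unadjusted p under 0.05 (13.95%, against 7.84% of the table). Without WT replicate 1, 25 of the 129 changed sign, among them Slc39a8 (-0.98, and 0.30 without it) and the glutamate transporter Slc1a2 (-0.27 and 0.24). Of the genes named by rule, these changed sign with a library left out, over these ranges: Slc6a6 -0.080 to 0.097 (0.0091 with library size only), Slc27a4 -0.0098 to 0.15, Slc9a3r2 -0.047 to 0.17, Slc10a3 -0.17 to 0.039, Slc20a1 -0.31 to 0.052, Slc37a3 -0.15 to 0.062 and Slc19a2 -0.083 to 0.35. The causes were not tested. Slc6a17 passed in DESeq2 alone. The 3 libraries a group limit the precision of every value.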
